A study of Mus musculus with 8 samples.

Results

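The JAK kinases Jak1, Jak2 and Tyk2, the transcription factors Stat3, Stat5b and Stat6, the feedback inhibitors Socs2, Socs3 and Cish, and the kinase Pim1 were examined in mouse mammary carcinoma cells sorted by the surface protein SCA1. These 10 genes were chosen by name as parts of JAK-STAT signaling and were matched by symbol to the Ensembl identifiers of the 16341 genes counted. All 10 were counted, and all 10 were abundant enough to be tested among 11717 genes. The question was how far the transcripts of this pathway differ between cells that carry SCA1 and cells that do not.

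Cytokines of the IL-6, interferon, IL-4 and growth hormone groups bind receptors that have no kinase activity of their own. JAK kinases attached to the receptor tails phosphorylate STAT proteins, which then enter the nucleus and switch on target genes. Some of those targets, the SOCS proteins and CISH among them, shut the pathway down again, so their transcripts are often read as traces of recent signaling. In mammary cells STAT5 is known for its part in milk gene expression, STAT6 for its response to IL-4 and IL-13, and STAT3 for its response to IL-6 family cytokines.

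The cells were 4T1, a line from a mammary tumor of a BALB/c mouse. RNA was sequenced from 4T1-Sca1+ cells and from 4T1-Sca1- cells, separated on magnetic columns after staining for SCA1, with 4 libraries in each group and no treatment named in the labels. The source label gives the unsorted parental line as the origin, while the protocol speaks of stained tumor and a further label gives a gate without CD45, a leukocyte surface protein. The paper states that the fractions it profiled were sorted from parental 4T1 cells. Nothing in the labels says that the libraries came from separate sorts, so the p-values measure the spread between these libraries, which may be technical. Both groups are fractions of a single cell line, and they were enriched for the marker rather than cloned.

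Total counts ran from 15041995 to 16968215 in Sca1+ libraries and from 13561804 to 16142836 in Sca1- libraries. Ly6a, which encodes SCA1, had normalized counts of 145 to 193 in Sca1+ libraries and 0 to 4.11 in Sca1- libraries, in the direction of the labels. Its total over the Sca1- libraries was 7 counts. Of 12 mammary epithelial markers, 11 were tested, with 2 higher (Krt8 and Krt18) and 6 lower in Sca1+ cells, among them Cdh1 (-0.69 on the log2 scale), Cldn4 (-0.62) and Esrp1 (-0.56). Epcam, Krt8 and Krt18 were abundant in both groups, and of the basal keratins Krt14 averaged 550 ± 20.9 and 649.5 ± 38.1 normalized counts while Krt5 had at most 2 counts in any library. Of 18 leukocyte markers, 12 were uncounted or had at most 10 counts in each library, and Ptprc, which encodes CD45, had at most 4. The summed leukocyte marker level was 1122 to 1181 in Sca1+ and 1061 to 1168 in Sca1- libraries, most of it from Cd14, which was lower in Sca1+ cells. The other 4 leukocyte markers tested were higher without overlap, at log2 differences of 2.38 for S100a8, 1.18 for Csf1r, 0.94 for Cd74 and 0.65 for Cd68, and the part of such cells in the results was not tested. Of 11 fibroblast markers, 6 were uncounted or at 10 counts or fewer, and the sum of the list, 637 to 674 against 395 to 468, came mainly from Pdgfra. Of the 3 tested, 2 were higher in Sca1+ cells, Col1a1 (0.75 on the log2 scale) and Pdgfra (0.63), and 0 were lower. The part of fibroblasts in the results was not tested. Of 9 endothelial markers, 7 were uncounted or at 10 counts or fewer, and their sum was 34.7 to 43.9 against 43.4 to 66.2. In bulk RNA, fewer cells that express a gene and less RNA of it per cell cannot be told apart.

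Of the 10 genes, 6 were higher in Sca1+ cells (Jak2, Tyk2, Stat3, Stat5b, Socs3 and Cish), 2 were lower (Stat6 and Pim1) and 2 did not pass the test (Jak1 and Socs2). The test was edgeR's quasi-likelihood test with Benjamini-Hochberg adjustment over all genes tested, and the limit for a call was an adjusted p of 0.05. Over all genes tested, 61.5% were called, 31.3% higher and 30.2% lower, so a call by itself is common in these data. The libraries of the groups did not overlap for 4 of these 10 (Jak2, Tyk2, Stat6 and Cish), against 54.7% of all genes tested. The median absolute log2 fold change was 0.22 over the 10 genes and 0.24 over all genes tested. Jak2 stood at percentile 91.7 of all absolute log2 fold changes and Cish at 84.2, whereas the other called genes lay between 31.9 and 70.1. A call with a log2 change of 1 or more in size was made for 0 of the 10 genes, against 6.10% of all genes tested. With each library scaled by its total count alone, the called genes became 6 higher and 1 lower.

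**Figure D1:**
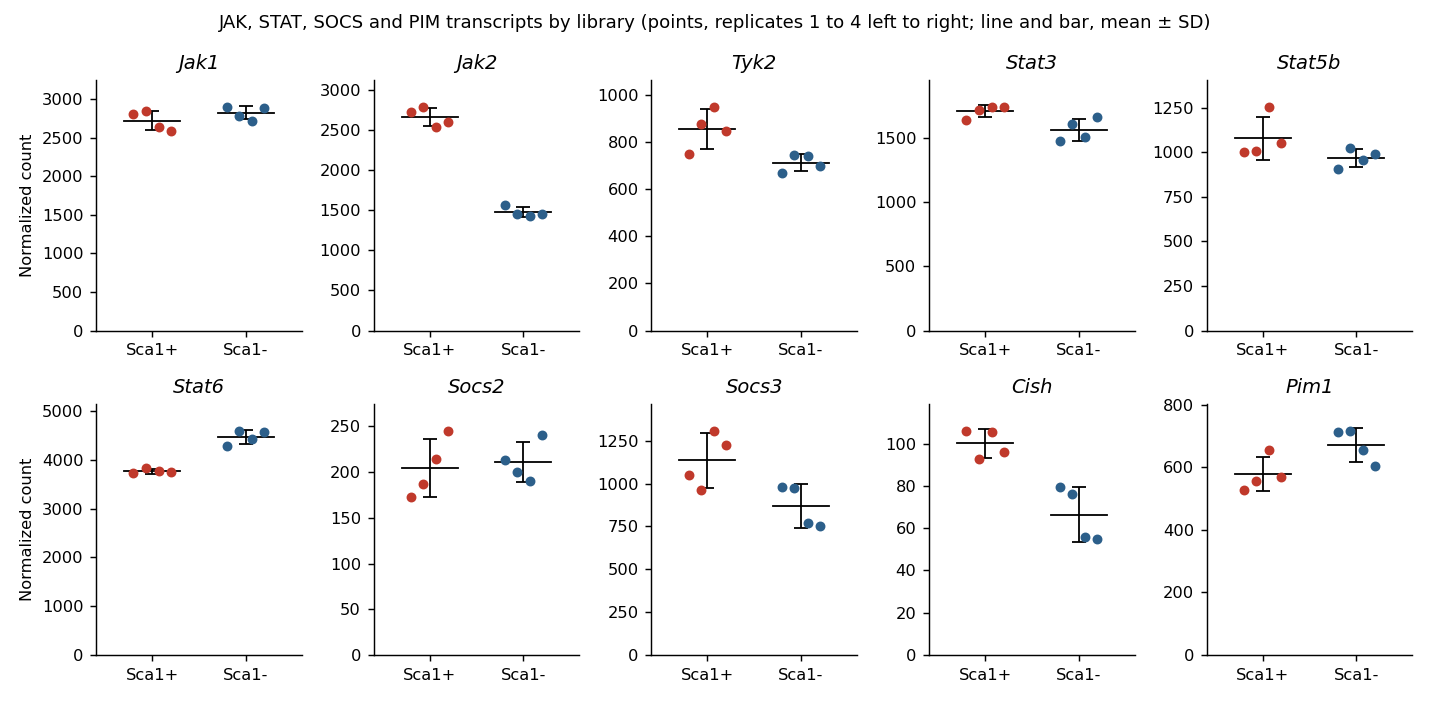
Normalized counts (vertical axes, from 0) of the 10 genes in each library, Sca1+ in red and Sca1- in blue, with points for replicates 1 to 4 from left to right and the mean ± SD of 4 libraries in black. The Jak2 points of the groups lie far apart, at 2540 to 2790 and 1433 to 1568, while those of Jak1 and Socs2 lie at the same height.

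Among the JAK kinases, Jak2 changed most and Jak1 did not pass the test. Jak2 (ENSMUSG00000024789; GRCm38 chr19:29251828-29313080, plus strand) encodes the kinase that serves, among others, the receptors for growth hormone, prolactin and erythropoietin. Its normalized counts, which are counts divided by a size factor per library, were 2726, 2790, 2540 and 2597 in Sca1+ replicates 1 to 4. They were 1568, 1447, 1433 and 1454 in Sca1- replicates 1 to 4. Every Sca1+ library lay well above every Sca1- library, and within each group the libraries were close together. Jak2 was 1.82-fold higher in Sca1+ cells, with a 95% confidence interval of 1.70 to 1.95. On the log2 scale the difference was 0.86, with a standard error (SE) of 0.05 and an edgeR adjusted p of 9.59e-11.

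Jak1 (ENSMUSG00000028530; chr4:101152367-101265282, minus strand) encodes the kinase shared by the IL-6 family, interferon and IL-4 receptors. It had normalized counts of 2812, 2840, 2635 and 2592 in Sca1+ libraries and of 2902, 2783, 2718 and 2890 in Sca1- libraries. The groups overlapped, and their means, 2720 ± 124 and 2824 ± 88.2 (SD, n = 4), lay within the spread of the libraries. The log2 difference of Jak1 was -0.04 (95% confidence interval -0.14 to 0.06, edgeR adjusted p = 0.459).

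Tyk2 (ENSMUSG00000032175; chr9:21104068-21131243, minus strand) encodes a JAK kinase of the interferon and IL-12 receptors. Its normalized counts were 749, 875, 951 and 847 in Sca1+ libraries and 669, 743, 742 and 697 in Sca1- libraries. The groups did not overlap, but the lowest Sca1+ value, in replicate 1, was just above the highest Sca1- value. Tyk2 was 1.21-fold higher, a log2 difference of 0.28 (SE 0.07, edgeR adjusted p = 0.00171). With offsets corrected for GC content this difference shrank to 0.13 (adjusted p = 0.0321). Jak3, the kinase that pairs with the common gamma chain, averaged 571 ± 87.6 normalized counts in Sca1+ and 413 ± 23.1 in Sca1- cells (SD, n = 4), a log2 difference of 0.48 that became 0.22 with GC-corrected offsets.

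The unequal change of Jak2 and Jak1 could be read without any scaling between libraries, because both were counted in each library. The ratio of Jak2 to Jak1 counts was 0.964 to 1.00 in Sca1+ libraries and 0.503 to 0.540 in Sca1- libraries, with no overlap. The ratio of Tyk2 to Jak1 counts overlapped, at 0.266 to 0.361 against 0.230 to 0.273.

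Levels of different genes were compared per length, as CPM (counts scaled to a common library size) divided by the kilobases of exon. In Sca1- libraries the level of Jak1 was 24.7 to 26.3 and that of Jak2 was 18.7 to 20.4, so Jak1 led the family. In Sca1+ libraries the level of Jak2 was 35.0 ± 1.57 and that of Jak1 was 24.9 ± 1.17 (SD, n = 4), again without overlap between the libraries. The order in Sca1+ cells depends on the length used, since with the longest annotated transcript the level of Jak1 was 35.0 to 38.3 and overlapped that of Jak2. Tyk2 and Jak3 were lower, with Sca1+ levels of 7.24 to 9.12 and 6.46 to 8.64 that overlapped and Sca1- levels of 6.38 to 7.10 and 4.66 to 5.29 that did not. With exon lengths, Jak2 made up 44.3% to 47.5% of the summed level of the 4 JAKs in Sca1+ libraries and 33.4% to 35.1% in Sca1- libraries. The share of Jak1 was 32.0% to 34.1% and 44.3% to 46.4% in the same libraries. The summed JAK level was 72.6 to 77.6 in Sca1+ and 55.8 to 58.2 in Sca1- libraries.

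**Figure D2:**
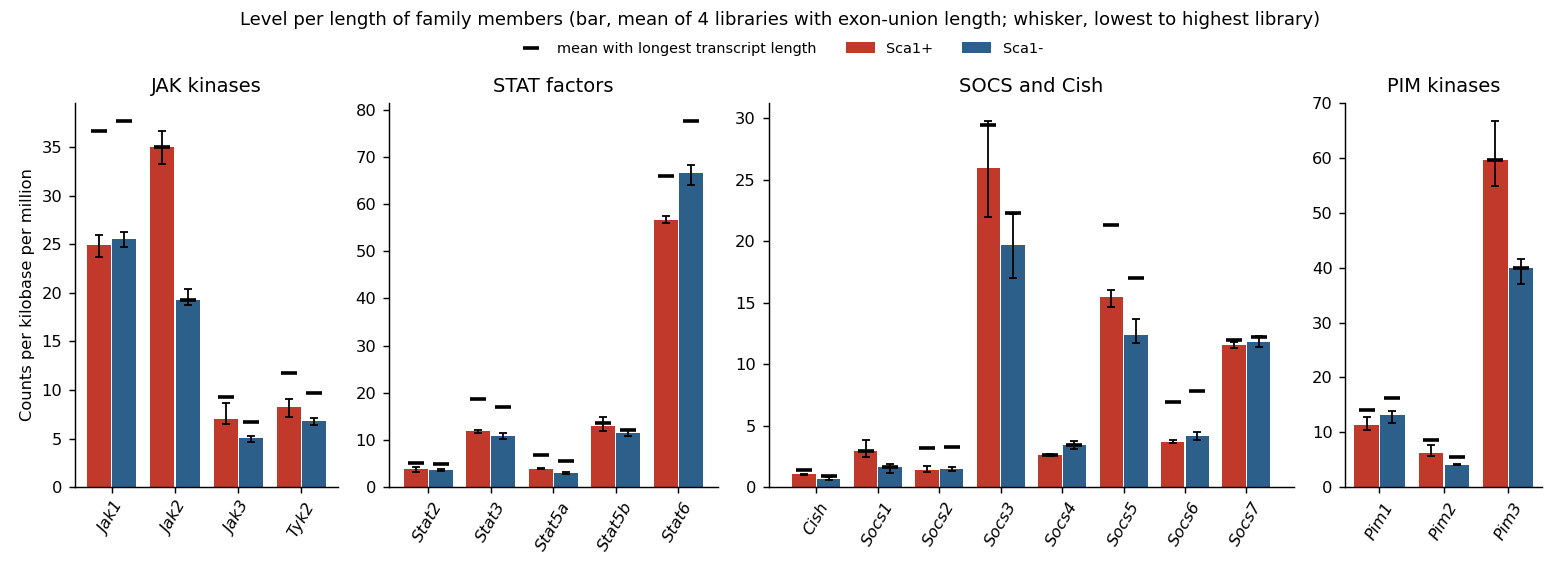
Level per length (CPM per kilobase, vertical axes from 0, with a scale of its own in each panel) of JAK, STAT, SOCS and PIM genes. Bars are means of 4 libraries with the summed exon length, whiskers run from the lowest to the highest library, and black dashes mark the mean with the longest transcript as length. Jak2 rises above Jak1 in Sca1+ cells with exon lengths only, and Stat6 and Pim3 lead their families in both groups.

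The STAT transcripts moved in both directions and by small amounts. Stat6 (ENSMUSG00000002147; chr10:127642986-127660957, plus strand), the factor that responds to IL-4 and IL-13, had normalized counts of 3722, 3825, 3769 and 3744 in Sca1+ libraries. It had 4294, 4594, 4429 and 4566 in Sca1- libraries. All Sca1+ libraries lay below all Sca1- libraries, and the Sca1+ values were the tighter set. Stat6 was lower in Sca1+ cells by a log2 difference of -0.23 (SE 0.04, edgeR adjusted p = 9.34e-05). Stat6 overlaps Nab2 on the opposite strand, and Nab2, which had up to 1027 counts, was higher in Sca1+ cells by 0.77 on the log2 scale. The library kit does not mark strand, so reads from the shared stretch cannot be told apart.

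Stat3 (ENSMUSG00000004040; chr11:100885098-100939540, minus strand), the main factor of IL-6 family signaling, had normalized counts of 1638, 1716, 1741 and 1739 in Sca1+ libraries. In Sca1- libraries it had 1470, 1608, 1502 and 1659. The groups overlapped, since Sca1- replicate 4 exceeded Sca1+ replicate 1. The log2 difference of Stat3 was 0.14 (SE 0.05, edgeR adjusted p = 0.0164). The call was lost without Sca1- replicate 1 (adjusted p = 0.0874) and without Sca1- replicate 3 (adjusted p = 0.0628). Stat3 overlaps Stat5a on the opposite strand, so the reads these genes share are uncertain in the same way.

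Stat5b (ENSMUSG00000020919; chr11:100780731-100850724, minus strand) encodes one of the paired STAT5 factors of prolactin and growth hormone signaling. Its normalized counts were 1000, 1005, 1256 and 1050 in Sca1+ libraries and 908, 1024, 954 and 992 in Sca1- libraries. The groups overlapped, and Sca1+ replicate 3 stood above the rest. The log2 difference of Stat5b was 0.17 (SE 0.07, edgeR adjusted p = 0.0413), and 9 of 18 alternatives lost the call. Without Sca1+ replicate 3 it was 0.083 (adjusted p = 0.176). Stat5a, the close paralog of Stat5b, averaged 413 ± 9.19 and 329 ± 23.0 normalized counts, a log2 difference of 0.34 (edgeR adjusted p = 0.000267). Reads from stretches that Stat5a and Stat5b share may have been split between them.

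Stat2, a factor of type I interferon signaling, averaged 337 ± 41.4 and 327 ± 15.2 (edgeR adjusted p = 0.593). Stat4 was not among the genes counted.

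Per length, Stat6 led the STAT family by far in both groups, with levels of 56.0 to 57.5 in Sca1+ and 63.9 to 68.2 in Sca1- libraries. Stat3 and Stat5b followed, and their order depends on the length used. With exon lengths their libraries overlapped in both groups, with means of 11.9 and 12.9 in Sca1+ and 10.7 and 11.5 in Sca1- cells. With the longest transcript Stat3 was above Stat5b in both groups without overlap, with means of 18.7 and 13.7 in Sca1+ and 16.9 and 12.2 in Sca1- cells. Counts of Stat3 were 0.440 to 0.464 of those of Stat6 in Sca1+ libraries and 0.339 to 0.363 in Sca1- libraries. Counts of Stat5b were 0.263 to 0.333 of those of Stat6 in Sca1+ libraries and 0.212 to 0.223 in Sca1- libraries. Neither ratio overlapped between the groups, so Stat6 stood lower against both factors in every Sca1+ library, whatever the scaling.

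The inhibitors Cish and Socs3 were higher in Sca1+ cells, and Socs2 did not pass the test. Both of the former carry matches to a STAT motif near their start sites. The motif TTCNNNGAA, to which STAT dimers are known to bind, was searched in RefSeq promoter windows (GRCm38.p6) from 250 bases before to 50 after each start. It reads the same on both strands, so one search covers both. The motif occurred in 2726 of 32851 windows (8.30%), and in 2 of the 11 windows of the described genes. These windows cover 9 of the 10 genes, and Socs2 was not searched. No match was found in the windows of Jak2, Tyk2, Stat3 and Stat5b, which were also higher in Sca1+ cells. The form with 4 bases between TTC and GAA, which STAT6 is known to favor, occurred in 6.95% of all windows and in 0 of those 11. A match is a description and not a site shown to be bound. The stretches that hold the matches are shown with the motif in capitals, for Cish the 30 bases from 10 before to 20 after the start (chr9:107296649-107296678, plus strand) and for Socs3 the 145 bases from 230 to 86 before the start (chr11:117969452-117969596, minus strand).
Cish: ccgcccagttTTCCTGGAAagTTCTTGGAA
Socs3: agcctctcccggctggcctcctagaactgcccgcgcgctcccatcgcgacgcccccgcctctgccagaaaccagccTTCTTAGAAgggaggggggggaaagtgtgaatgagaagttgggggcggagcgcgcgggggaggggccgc
In Cish the matches begin at base 1 and base 12 after the start and lie in the 5' untranslated exon of 1 of its 5 annotated transcripts. The match in Socs3 begins 154 bases before the start, in no annotated exon, within the span of 1 of 3 transcripts.

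Cish (ENSMUSG00000032578; chr9:107296026-107302784, plus strand) encodes a SOCS family protein that is induced through STAT5. It was the least abundant of the 10 genes, with normalized counts of 106, 92.7, 106 and 96.3 in Sca1+ libraries. In Sca1- libraries it had 79.3, 76.0, 55.7 and 54.8. The groups did not overlap, and the Sca1- libraries split into a higher and a lower pair. Cish was 1.51-fold higher, with a 95% confidence interval of 1.24 to 1.83, and the log2 difference was 0.59 (SE 0.13, edgeR adjusted p = 0.000947). Its call held under each of 18 alternatives, where the log2 difference lay between 0.51 and 0.68. The ratio of Cish to Stat5b counts overlapped between the groups, at 0.0842 to 0.106 against 0.0552 to 0.0873.

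Socs3 (ENSMUSG00000053113; chr11:117966079-117970047, minus strand) encodes the inhibitor that binds the IL-6 receptor subunit gp130 and JAKs, and it is a known STAT3 target. Its normalized counts were 1049, 961, 1308 and 1225 in Sca1+ libraries and 981, 976, 768 and 751 in Sca1- libraries. The groups overlapped, since Sca1+ replicate 2 lay below Sca1- replicates 1 and 2. Socs3 was 1.32-fold higher, a log2 difference of 0.40 (SE 0.096, edgeR adjusted p = 0.00165). With GC-corrected offsets the difference was 0.20 (adjusted p = 0.0133). As for Cish, Sca1- replicates 1 and 2 were above Sca1- replicates 3 and 4. These were also the libraries with more counts, 16142836 and 15282271 against 13831141 and 13561804, and the part of depth in this was not tested. The immediate early and stress genes Fos, Fosb, Jun and Hspa1b, though not all genes of that kind, split the same way, with normalized counts of 3477, 3454, 2884 and 2912 for Fos and 546, 534, 433 and 365 for Hspa1b in Sca1- replicates 1 to 4. Against 61.5% of all genes tested, 83.3% of the tested genes of that kind were called. Of 13 genes of that kind, 12 were tested, and 4 were higher and 6 lower in Sca1+ cells, with Atf3 the lowest at -2.42. Their summed level was 28992 to 31247 in Sca1+ and 31958 to 38459 in Sca1- libraries, and their part in the values of Socs3 and Cish was not tested. The ratio of Socs3 to Stat3 counts overlapped between the groups, at 0.560 to 0.751 against 0.453 to 0.667.

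Socs2 (ENSMUSG00000020027; chr10:95385362-95417180, minus strand), the inhibitor known for restraining growth hormone signaling, had normalized counts of 173, 187, 214 and 245 in Sca1+ libraries. It had 213, 200, 190 and 241 in Sca1- libraries. The groups covered nearly the same range. The log2 difference of Socs2 was -0.03 (95% confidence interval -0.25 to 0.20, edgeR adjusted p = 0.846). The sign of this value turned in 6 of 18 alternatives. Counts of Socs3 were 5 to 6.10 times those of Socs2 in Sca1+ libraries and 3.12 to 4.88 times in Sca1- libraries, with no overlap.

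The other members of the family did not move together. Socs1, which inhibits JAKs directly and follows interferon signaling, averaged 128 ± 27.0 and 71.3 ± 15.3 normalized counts, a log2 difference of 0.85 (edgeR adjusted p = 0.000186). Socs4 was lower, with averages of 270 ± 9.73 and 362 ± 32.3 and a log2 difference of -0.41. Socs6 was lower by a log2 difference of -0.18, which became -0.06 and lost its call with GC-corrected offsets. Per length, Socs3 had the highest level of the family in both groups, 22.0 to 29.8 in Sca1+ and 17.0 to 22.2 in Sca1- libraries. Cish had the lowest level, 0.955 to 1.09 in Sca1+ and 0.560 to 0.809 in Sca1- libraries, and was also lowest with the longest transcript. The place of Socs2 depends on the length used. Its mean Sca1+ level was 1.42 with exon lengths, below 2.92 for Socs1 and 2.60 for Socs4, and 3.19 with the longest transcript, where those of Socs1 and Socs4 were unchanged.

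Pim1 (ENSMUSG00000024014; chr17:29490753-29496112, plus strand) encodes a serine/threonine kinase that is a known STAT3 and STAT5 target and acts without a regulatory subunit. Its normalized counts were 528, 556, 656 and 570 in Sca1+ libraries and 713, 716, 655 and 603 in Sca1- libraries. The groups overlapped, with Sca1+ replicate 3 above Sca1- replicates 3 and 4. Pim1 was lower in Sca1+ cells by a log2 difference of -0.21 (SE 0.07, edgeR adjusted p = 0.0183). The call was lost in 4 of 18 alternatives, among them scaling by library totals (-0.16, adjusted p = 0.0558), and GC-corrected offsets moved the value to -0.33.

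The paralogs of Pim1 were higher in Sca1+ cells. Pim3 averaged 2194 ± 193 normalized counts in Sca1+ and 1477 ± 81.8 in Sca1- cells (SD, n = 4), a log2 difference of 0.58 that became 0.30 with GC-corrected offsets. Pim2 averaged 264 ± 43.3 and 174 ± 6.43, a log2 difference of 0.61. Counts of Pim3 were 3.62 to 4.00 times those of Pim1 in Sca1+ libraries and 2.15 to 2.28 times in Sca1- libraries. Per length, the share of Pim1 in the summed PIM level was 14.1% to 15.3% in Sca1+ and 22.3% to 23.4% in Sca1- libraries. Pim3 held 76.4% to 77.9% and 69.7% to 70.3%.

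**Figure D3:**
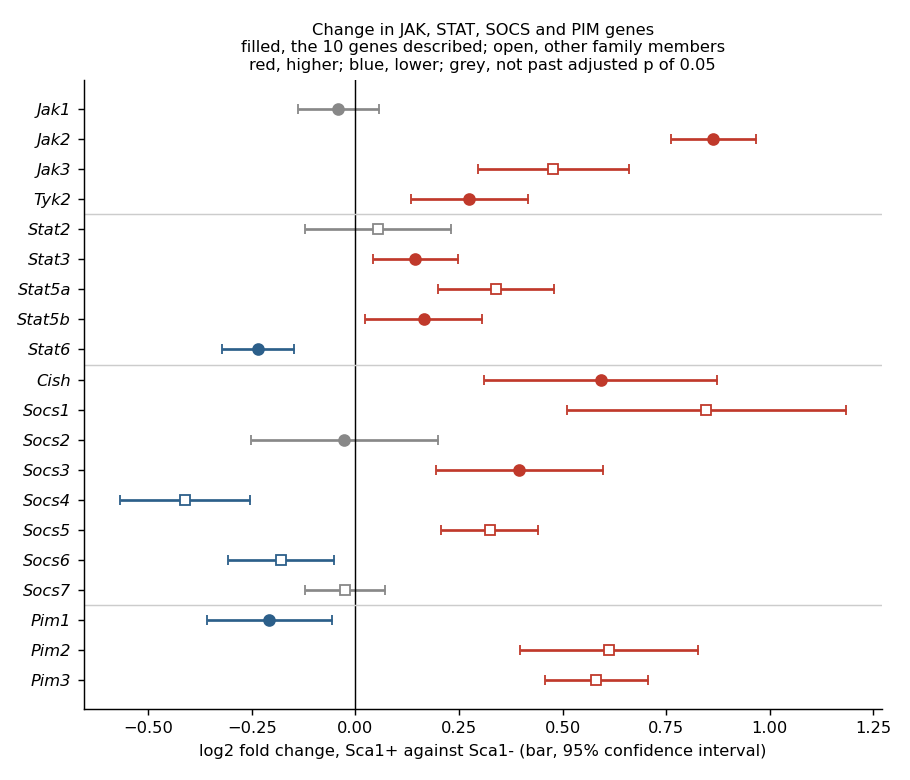
Log2 fold change of Sca1+ against Sca1- (horizontal axis) with its 95% confidence interval for tested JAK, STAT, SOCS and PIM genes, filled for the 10 genes described and open for other family members. Higher genes are red, lower genes blue and genes not called grey. Jak2 (0.86) and Socs1 (0.85) lie farthest to the right and Socs4 (-0.41) farthest to the left.

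GC content of the transcripts moved with several of these values. Over 11616 tested genes with a known transcript, the log2 fold change rose by 0.215 for each 10 percentage points of GC in the longest transcript. Socs3 and Tyk2 had the highest GC of the 10 genes, 58.7% and 57.0%, and Jak2 had the lowest, 44.3%. With GC-corrected offsets the log2 difference of Jak2 was 0.94. Within the Sca1+ group, replicate 3 rose by 0.196 per 10 points against the other libraries, whereas the other 3 had slopes of -0.0830 to -0.0365. This library held the highest Sca1+ value of 5 of the 10 genes (Tyk2, Stat3, Stat5b, Socs3 and Pim1). For Stat3 the lead was slight, 1741 normalized counts against 1739 in Sca1+ replicate 4. With Sca1+ replicate 3 left out, 5 genes were called higher and 2 lower.

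**Figure D4:**
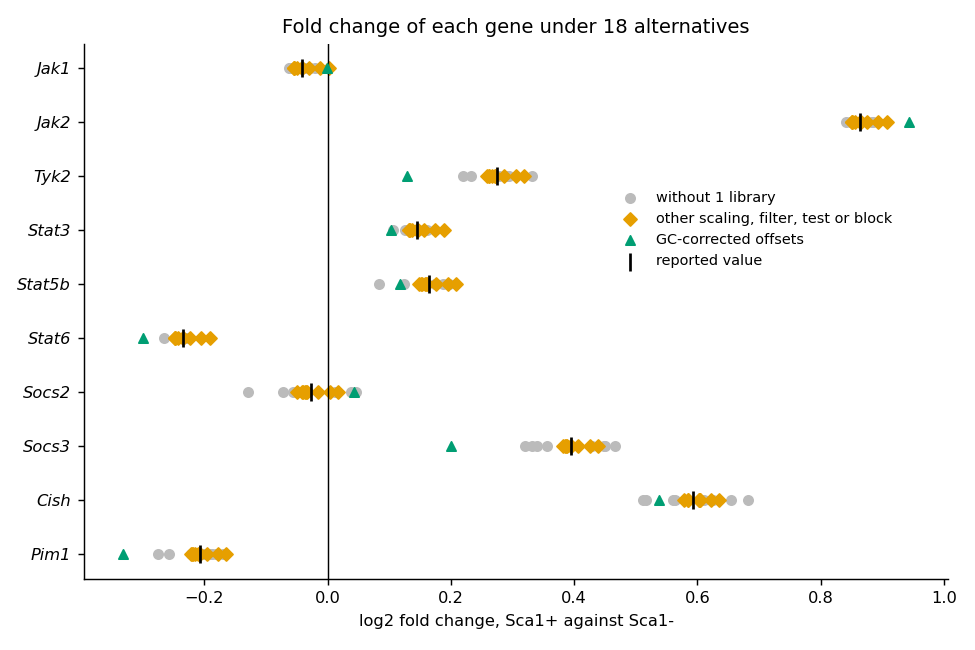
Log2 fold change (horizontal axis) of each of the 10 genes as reported (black bar) and under 18 alternatives, with grey circles for fits without 1 library, diamonds for another scaling, filter, test or replicate block, and triangles for GC-corrected offsets. Jak2 and Cish stay above 0.5 throughout, while the triangles of Tyk2 (0.13) and Socs3 (0.20) lie well to the left of their reported values.

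The rest of the pathway was described by lists written from general knowledge. Over all genes tested, 61.5% were called. The share called was 81.8% of the other JAK, STAT, SOCS and PIM genes tested, 72.7% of the receptors and 70% of the ligands. It was 66.7% of the phosphatases, PIAS proteins and adaptors and 73.1% of the STAT targets. Of 12 other JAK, STAT, SOCS and PIM genes, 11 were tested, of which 6 were higher and 3 lower, with a median log2 fold change of 0.32 against 0.01 over all genes tested. The 10 genes described had a median of 0.15, and among them Jak1 and Socs2 lay near 0 and changed sign in some alternatives. Log2 fold changes also rose with GC content over the tested genes, and the part of GC in these medians was not tested.

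Of 33 cytokine receptors that use JAKs, 22 were tested, and 11 were higher and 5 lower, with a median log2 fold change of 0.27. Osmr, the receptor subunit for oncostatin M, had 292, 301, 289 and 284 normalized counts in Sca1+ libraries and 151, 135, 150 and 145 in Sca1- libraries. Il6ra, the subunit that binds IL-6, had 493 ± 34.0 against 270 ± 33.1. Il6st, which encodes their shared partner gp130, had 2483 ± 75.3 against 2991 ± 75.6. The groups did not overlap for any of these receptors, and the log2 fold changes were 1.02 for Osmr, 0.87 for Il6ra and -0.26 for Il6st. Il12rb1, an IL-12 and IL-23 receptor subunit, was higher with a log2 fold change of 2.14. Il15ra was lower with -0.69 and Ifngr1, the ligand-binding chain of the interferon gamma receptor, with -0.40.

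Of 23 ligands, 10 were tested, and 3 were higher and 4 lower, with a median log2 fold change of -0.12. Tslp, which encodes an epithelial cytokine, was higher with a log2 fold change of 1.74, the IL-6 family cytokines Ctf1 and Il11 with 0.66 and 0.33. Il24 was lower with -1.65, Csf2, which encodes GM-CSF, with -1.30, and the IL-6 family cytokine Lif with -0.35. Il6 and Osm did not pass the low-count filter. Il6 had 29 counts over the 4 Sca1+ libraries against 8 over the 4 Sca1- libraries, and Osm had 0 against 1. In the fit without that filter, Il6 was higher with 1.64 (edgeR adjusted p = 0.0176), from at most 12 counts in any library.

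Of 18 phosphatases, PIAS proteins and adaptors, all were tested, and 7 were higher and 5 lower, with a median log2 fold change of 0.05. Among the higher ones were the adaptor genes Sh2b2 (0.95) and Sh2b3 (0.49) and Ptpn6, which encodes the phosphatase SHP-1 (0.63). The adaptor SH2B3, also called LNK, is known to restrain JAK2, and Sh2b3 overlaps Atxn2 on the opposite strand. Among the lower ones were the phosphatase genes Ptpn2 (-0.42) and Ptpn11 (-0.34) and the STAT-binding Nmi (-0.27).

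Of 36 known STAT target genes, 26 were tested, and 12 were higher and 7 lower, with a median log2 fold change of 0.18. Lcn2, which encodes an iron-carrier binding protein, was 4.28-fold higher, at 13412 ± 916 against 3162 ± 217 normalized counts. Cebpb, a transcription factor gene that overlaps Tmem189 on the opposite strand, and Vegfa, which encodes an angiogenic factor, were higher with log2 fold changes of 1.13 and 0.91. Icam1, which encodes an adhesion protein, Irf1, a transcription factor gene, and Gbp2, which encodes a GTPase, were lower with -0.98, -0.39 and -0.38. Many of these genes respond to other pathways as well.

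**Figure D5:**
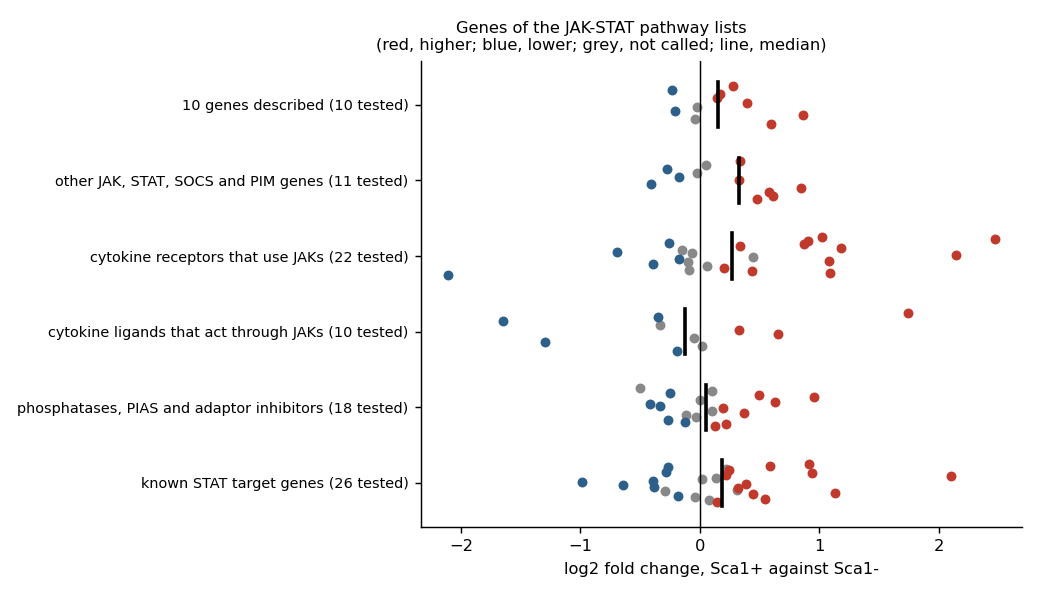
Log2 fold change of Sca1+ against Sca1- (horizontal axis) of the tested genes in 6 lists, each point a gene, red where higher, blue where lower and grey where not called, with a black line at the median. The lists hold genes on both sides of 0, and their medians run from -0.12 for ligands to 0.32 for the other JAK, STAT, SOCS and PIM genes.

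Genes next to the described genes on the chromosome moved in the same direction for some and not for others. The tested neighbors of Jak2, Rcl1 and Insl6, were lower in Sca1+ cells, with log2 fold changes of -0.42 and -0.30. The neighbors of Cish, Mapkapk3 and Hemk1, had 0.01 and 0.07 and did not pass the test. The neighbors of Socs3, Tha1 and Pgs1, were higher with 1.20 and 0.10. Around Stat3, the neighbors Stat5b and Cavin1 were higher with 0.17 and 0.23, as was the overlapping Stat5a.

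The genes whose levels followed those of Jak2 most closely were Cat, which encodes catalase, Fam89a, Ociad2, Them6 and Nr2c2. Their Pearson correlations with Jak2 on a log2 scale over the 8 libraries were 0.999, 0.998, 0.998, 0.997 and 0.997. The libraries form groups of 4, and each of these genes was higher in Sca1+ cells without overlap, so the values mainly describe that shared split. The log2 fold change was 0.45 for Cat, 1.40 for Fam89a, 1.01 for Ociad2, 0.90 for Them6 and 0.40 for Nr2c2.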

How the data were processed

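RNA of sorted cells was sequenced from 4 Sca1+ and 4 Sca1- TruSeq libraries, which do not mark strand. The submitters' processing notes name cutadapt 1.16, STAR 2.5.3a and the builds GRCm38 and mm10. The counting tool and annotation are not given in the sources used here. The authors deposited raw counts for 16341 Ensembl genes and a table of normalized signal for 15372 of them, whose values equal the counts divided by DESeq2 size factors to a relative difference of at most 5e-15. Symbols, positions, exon lengths and GC came from GENCODE M21 (16202 genes matched), and promoter windows from RefSeq.

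Counts were tested in R 4.3.3 with edgeR 4.0.16 (filterByExpr, TMM, glmQLFit, glmQLFTest, two-sided, no covariate), with Benjamini-Hochberg adjustment over 11717 genes. Standard errors were the absolute log2 fold change divided by the square root of F. Normalized counts are counts over size factors, as mean ± SD of 4 libraries. Levels per length used TMM library sizes. Alternatives were DESeq2 size factors, upper-quartile scaling, library totals, GC-corrected offsets (loess), no filter, a minimum of 10 counts per library, limma-voom (limma 3.58.1), DESeq2 1.42.0, limma on log2(value + 1) of the deposited normalized signal, a replicate block, stricter thresholds and leaving out each library. The 18 alternatives counted for a gene are these without the stricter thresholds. The edgeR step was tested on simulated data. PCR reads are not independent molecules, so precision from total counts covers counting error only.

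All 10 genes were named, and from each list the called genes with the 3 highest and 3 lowest fold changes, if their normalized counts averaged 100 or more, together with Stat2, Stat5a, Jak3, Socs1, Osmr, Il6ra, Il6st, Osm, Il6 and Ly6a and 5 correlates of Jak2. Nab2, Atxn2, Tmem189 and the chromosomal neighbors were named because they overlap or flank a described gene, and genes of the cell type and immediate early lists as markers, chosen after their values were seen. A few genes that this rule takes in are not reported here. The genes and lists were chosen with earlier results of these data known.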

Additional observations from a re-analysis of the deposited data

Results flagged for a closer look

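Within groups of 4 libraries, 88 sets of values (the described genes and the genes named from the lists) were examined for a library far from the others, and 4 had one by Dixon's 95% limit, where chance gives about 4.4. Jak2 had 1568 normalized counts in Sca1- replicate 1 and 1433 to 1454 in the others, all far below the Sca1+ values. Jak3 had 702.2 in Sca1+ replicate 3 against 522.6 to 536.5, and Pim2 had 328.2 in the same library against 236.7 to 250.4. Lif had 3043 in Sca1+ replicate 4 against 3320 to 3358. Without Sca1+ replicate 3 the log2 fold changes were 0.36 for Jak3 and 0.49 for Pim2.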

How the results depend on the processing

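Jak2, Tyk2, Stat6, Socs3 and Cish kept direction and call in all 18 alternatives, which leave out the stricter thresholds. Their log2 fold changes were 0.84 to 0.94, 0.13 to 0.33, -0.30 to -0.19, 0.20 to 0.47 and 0.51 to 0.68. Stat3 lost its call in 2, Pim1 in 4 and Stat5b in 9, always in the same direction. Values near 0 changed sign. Jak1 became 0.0017 with library totals. Socs2 became 0.0030 with upper-quartile scaling, 0.016 with library totals and 0.043 with GC-corrected offsets, and ran from -0.13 to 0.046 without 1 library. Stat2 ran from -0.0042 to 0.11 without 1 library. The causes were not tested.

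Of the described genes, 1 was called lower with library totals and 1 at an adjusted p under 0.01, 1 to 2 when 1 library was left out (1 without Sca1+ replicate 1, Sca1- replicate 1 or Sca1- replicate 2), and 4 to 6 were then called higher (4 without Sca1- replicate 1 or Sca1- replicate 3). At an adjusted p under 0.01, 4 were called higher. With calls limited to log2 changes of 1 or more in size, there were 0 higher and 0 lower of them and 612 and 103 of all genes. There were then 0 and 0 of the other JAK, STAT, SOCS and PIM genes, 6 and 1 receptors and 1 and 2 ligands. Phosphatases, PIAS proteins and adaptors had 0 and 0, and STAT targets 2 and 0. Ligands called higher were 5 without the low-count filter and 5 with limma on the deposited normalized table. Phosphatases, PIAS proteins and adaptors called lower were 8 with GC-corrected offsets. Socs6 lost its call with library totals (-0.14), GC-corrected offsets (-0.06) and without Sca1- replicate 3 (-0.14).

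No pairing by replicate number was visible. Deviations of same-numbered libraries correlated by 0.0957, -0.15, -0.0339 and -0.00107, and 1 of the numbers correlated best with itself. Such values cannot exclude shared sorts, because the deviations also carry GC trends of single libraries. With the replicate block, 6 described genes were called higher and 2 lower, as without it, and 3605 and 3452 of all genes.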
